A study of Mus musculus with 28 samples.

Results

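This comparison covers CD45+ cells of B16.F10 tumours at day 18, in mice whose Foxp3-expressing cells lack Nrp1 against mice in which Nrp1 is intact. B16.F10 is a mouse melanoma line, and CD45 is the surface protein of blood-derived cells. Members were chosen by sample title alone: 3 arrays from Nrp1L/LFoxp3Cre-YFP mice (Nrp1-deleted) and 3 arrays from Foxp3Cre-YFP mice (control), 6 of the 28 arrays in the series. Both genotypes carry Cre recombinase and YFP under Foxp3, the gene of the transcription factor of regulatory T cells (Treg), so that the floxed Nrp1 alleles are removed in Foxp3-expressing cells and remain in macrophages, dendritic cells and other cells of the pool. The other 22 arrays hold the same genotypes in MC38 colon carcinoma at days 6, 12 and 18 and in B16 tumours at day 12 and at an early time that the titles give as day 8 and the source names as day 6. No label says that the arrays of a group came from separate mice, so a p-value here measures the spread between arrays.

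Nrp1 encodes neuropilin-1, a receptor that binds semaphorins together with plexins and on Treg is engaged by Sema4a. Treg restrain other lymphocytes, and macrophages of growing tumours take up lipid, clear dying cells and present antigen. Loss of Nrp1 from Treg is known to weaken their suppressive function in tumours, and the comparison asks what the remaining leukocytes look like at the late time.

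Values are log2 intensities of 1 probe set per gene, and a difference is Nrp1-deleted minus control with its standard error (SE) after the ± sign, from a limma model of all 28 arrays. A gene is called when its Benjamini-Hochberg adjusted p over 17097 genes is at most 0.05. At day 18 in B16, 3217 genes (18.8%) were called, 1289 higher (7.54%) and 1928 lower (11.3%) on Nrp1-deleted arrays. At least a 2-fold difference was reached by 122 of the higher (0.714%) and 739 of the lower genes (4.32%), so the large changes were mainly falls, while the median over all genes was 0.00. All 3 Nrp1-deleted arrays lay above all 3 control arrays for 2321 genes (13.6%) and below them for 2707 (15.8%). Without Nrp1-deleted replicate 1, 2 or 3, the shares of all genes called were 5.38%, 4.69% and 7.98% higher and 9.56%, 8.7% and 11.4% lower. Without control replicate 1, 2 or 3 they were 7.09%, 5.69% and 5.08% higher and 9.6%, 10.7% and 9.33% lower. Over all probe sets the 6 arrays correlated with each other at 0.967 to 0.991. Nrp1-deleted replicate 3 stood somewhat apart, with r over genes of 0.9885 and 0.9886 to its own group where the other pair reached 0.9929, and with 103 genes more than 1 log2 unit above and 71 below both other Nrp1-deleted arrays. Values without it are given beside many of the named genes and lists whose call it changes, but not beside all of them.

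Nrp1 was lower in the Nrp1-deleted group. Its level was 8.78, 8.36 and 8.31 on Nrp1-deleted arrays, against 9.55, 9.22 and 8.93 on control arrays. The groups did not overlap, and the difference was -0.75 ± 0.18 (limma adjusted p = 0.00491), a 1.68-fold fall that stayed called in every alternative tried. Because its target may not overlap the floxed exons, and because other CD45+ cells also express Nrp1, the probe set checks the labels only in part. Foxp3 was at the background of the arrays, at 2.86, 2.89 and 2.66 in Nrp1-deleted and 3.01, 2.65 and 3.17 in control cells, and the difference of -0.14 ± 0.17 did not pass (adjusted p = 0.67).

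Of 22 neuropilin, semaphorin and plexin genes, 2 rose and 6 fell, with a median of -0.13, where 7.54% of all genes rose and 11.3% fell. The share of rises is thus near that of all genes. The ligands that rose were Sema4d, made by T cells, and Sema4a, the Treg ligand of neuropilin-1. Sema4d was at 8.94, 8.87 and 8.86 on Nrp1-deleted and 8.23, 8.30 and 7.98 on control arrays (0.72 ± 0.10, adjusted p = 1.7e-05), with no overlap. Sema4a was 0.60 higher. Among receptors, the plexins Plxna1 (-2.22), Plxnb2 (-1.04) and Plxnd1 (-0.88) and the second neuropilin, Nrp2 (-0.71), fell, as did the ligand Sema3b (-0.89). Of 14 Treg genes, 0 rose and 2 fell, Itgae (the integrin alpha E, -2.19) and Ebi3 (a subunit of interleukin-35, -0.80), both of which dendritic cells also express. That share of falls is near the 11.3% over all genes. Ctla4 (0.72, adjusted p = 0.31), Il2ra (0.61, adjusted p = 0.286) and Ikzf2 (0.60, adjusted p = 0.171), which encode inhibitory, growth factor and Helios proteins of Treg, did not pass. All 3 Nrp1-deleted arrays lay above all control arrays for 6 of the 14, where this held for 13.6% of all genes. On the 6 arrays alone, Ctla4 (adjusted p = 0.00154) and Ikzf2 (adjusted p = 0.0377) rose, where 4.72% of all genes did.

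The furthest fall at day 18 was in pigment cell genes, which melanocytes and B16 melanoma cells express. Some members are also expressed by CD45+ cells, such as Kit in mast cells and Gpnmb in macrophages. Of 18 measured members, 17 fell, the median difference was -3.07, and all 17 lay below the control arrays with no overlap, where 11.3% of all genes fell. The mean level of the list was 5.89, 5.85 and 5.35 on Nrp1-deleted arrays, against 8.48, 8.99 and 8.47 on control arrays. Every control array therefore carried far more of this RNA than every Nrp1-deleted array. Summed on a linear scale, the list made up 0.0716%, 0.0675% and 0.0384% of the signal of Nrp1-deleted arrays and 0.421%, 0.592% and 0.414% of that of control arrays. On MC38 day 12 arrays, whose tumour line is not pigmented, the list mean was 3.73 to 3.95. On all 3 Nrp1-deleted arrays 12 of the 18 members exceeded every MC38 day 12 array, and on all 3 control arrays 17 did, among them Tyr, Tyrp1 and Dct in both genotypes. Mitf averaged 6.67 on Nrp1-deleted and 9.27 on control arrays of B16 day 18 and 7.83 on MC38 day 12 arrays. In a bulk sample, fewer cells of a type and less RNA of that type per cell cannot be told apart.

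Mitf encodes the transcription factor of the melanocyte lineage, which binds the motif CATGTG upstream of pigment genes. The promoters of 4 members are shown because these genes fell together and hold that motif within 250 bases before the transcription start. The sequences are from RefSeq, build GRCm38.p6, written 5′ to 3′ on the gene's strand, with the motif or its reverse complement CACATG in capitals. They are Tyr at chr7:87493513-87493762 on the minus strand, Tyrp1 at chr4:80833963-80834212 on the plus strand, Dct at chr14:118052247-118052496 on the minus strand and Trpm1 at chr7:64153585-64153834 on the plus strand.
Tyr: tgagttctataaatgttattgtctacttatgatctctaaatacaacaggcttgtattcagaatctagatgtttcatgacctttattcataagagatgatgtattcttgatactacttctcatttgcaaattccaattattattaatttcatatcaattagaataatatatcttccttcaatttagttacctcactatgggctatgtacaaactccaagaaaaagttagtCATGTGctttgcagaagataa
Tyrp1: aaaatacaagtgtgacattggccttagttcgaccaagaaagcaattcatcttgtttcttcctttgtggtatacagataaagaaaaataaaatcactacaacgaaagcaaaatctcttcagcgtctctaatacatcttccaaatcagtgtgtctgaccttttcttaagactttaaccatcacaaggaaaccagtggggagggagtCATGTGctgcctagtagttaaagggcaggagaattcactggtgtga
Dct: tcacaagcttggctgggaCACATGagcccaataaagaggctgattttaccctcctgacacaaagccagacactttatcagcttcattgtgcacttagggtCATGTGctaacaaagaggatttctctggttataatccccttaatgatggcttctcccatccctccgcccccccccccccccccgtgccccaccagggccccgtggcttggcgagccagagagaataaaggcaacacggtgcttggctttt
Trpm1: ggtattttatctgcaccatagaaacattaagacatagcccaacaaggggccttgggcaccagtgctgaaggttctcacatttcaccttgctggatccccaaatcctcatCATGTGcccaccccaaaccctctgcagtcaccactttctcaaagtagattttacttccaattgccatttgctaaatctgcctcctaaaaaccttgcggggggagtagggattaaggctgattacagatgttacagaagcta
On either strand the motif was found in 6 of the 12 members with a promoter entry and in 13.8% of 27025 genes with an entry. A gene counted when any of its promoters held a match. The first base of the motif lies at -21 in Tyr and -46 in Tyrp1, counted from the start site. A match is a description of these letters.

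Mitf itself was at 6.84, 6.64 and 6.52 on Nrp1-deleted arrays and 9.23, 9.59 and 8.99 on control arrays (-2.60 ± 0.20, adjusted p = 2.42e-09). Sox10, a transcription factor of neural crest cells, was at 5.73, 5.40 and 5.10 against 8.67, 8.97 and 8.33 (-3.24 ± 0.25). Neither gene overlapped between the groups. Of the melanin enzymes, Tyr, tyrosinase, was at 7.03, 6.86 and 5.61 on Nrp1-deleted and 9.97, 10.40 and 9.70 on control arrays (-3.52 ± 0.34), and Tyrp1 (-2.86 ± 0.30) and Dct (-3.12 ± 0.30) fell with it. The transporter Slc45a2 had the largest fall of any gene named by size, at 5.17, 5.25 and 4.66 against 9.01, 9.80 and 8.99 (-4.24 ± 0.28, 18.9-fold). These are again separate groups, with Nrp1-deleted replicate 3 lowest in each. Melanosome proteins Pmel (-3.43) and Mlana (-3.73), the trafficking GTPase Rab38 (-3.67) and the melanocortin receptor Mc1r (-3.22) lay in the same range. Kit, a receptor of melanocytes that mast cells also carry, was the member not called (0.03 ± 0.29, adjusted p = 0.972). With each of the 6 arrays left out in turn, 17 members fell every time.

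Lists of other cells that lack CD45 did not all move alike. Of 12 genes of the YAP and TAZ adhesion program, 10 fell (median -2.08), and of 22 fibroblast and matrix genes, 12 fell (median -0.77), although 12 of those 22 lay below the median of all values (4.64) on all 6 arrays. Of 12 endothelial genes 2 rose and 1 fell (median -0.02), and of 9 epithelial genes 0 were called (median 0.16). The epithelial gene Cdh1 was called without Nrp1-deleted replicate 3 (1.13, adjusted p = 0.0149). Wwtr1, which encodes TAZ, was at 3.33, 2.81 and 2.46 in Nrp1-deleted and 6.38, 6.67 and 5.67 in control cells (-3.37 ± 0.34, adjusted p = 9.21e-08). Yap1 (-2.30), the matricellular target Ccn1 (-3.00), the integrin adaptor Fermt2 (-3.70) and the membrane protein Tm4sf1 (-3.97) fell with it. Sparc, a collagen-binding matrix protein, was at 6.08, 5.69 and 5.0 against 9.29, 9.67 and 9.04 (-3.75 ± 0.35). Serpinh1, a collagen chaperone, fell by 3.75, while the fibrillar collagen genes Col1a1 (-0.41) and Col1a2 (0.13) did not pass and Col3a1 fell by 3.13. The pigment cell list moved the same way on the same arrays (5.35 to 5.89 in Nrp1-deleted, 8.47 to 8.99 in control cells), and its part in these falls was not tested. In MC38 at days 6, 12 and 18 the matrix median was -1.92, -1.94 and -1.27 and the YAP median -1.19, -0.95 and -0.70. The pigment cell median there was 0.05, 0.07 and -0.01. Against MC38 day 12, 6 of 22 matrix genes had a called difference above 0 and 3 of 12 YAP genes 1 below 0. With dim genes filtered out, 6 YAP genes and 5 matrix genes fell.

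Macrophage genes fell in nearly the whole list. Of 18 members, 16 fell and 0 rose (median -1.41), and 14 of them did not overlap between groups, where 15.8% of all genes lay wholly below. The deepest falls in the list were those of Gpnmb (-2.83), a lysosomal glycoprotein that is also in the pigment cell list, and Mertk. Mertk, a receptor for dying cells, was at 5.43, 4.94 and 5.06 on Nrp1-deleted arrays and 7.81, 8.32 and 7.46 on control arrays (-2.72 ± 0.29, adjusted p = 2.74e-07). Ms4a7, a membrane protein of macrophages, was at 6.39, 6.47 and 5.82 against 9.26, 7.35 and 8.89 (-2.28 ± 0.31). C1qa, a chain of the complement starter C1q, was at 8.32, 8.39 and 8.01 against 10.86, 9.28 and 10.54 (-1.99 ± 0.31). In all of them control replicate 2 was nearest to the Nrp1-deleted arrays or, for Mertk, highest. Falls of under 1 log2 unit included those of Adgre1, which encodes F4/80 (-0.89 ± 0.26), the growth factor receptor Csf1r (-0.64 ± 0.17) and Cd68 (-0.95 ± 0.21). The transcription factor Maf (0.27, adjusted p = 0.335) and the Fc receptor Fcgr1 (-0.26) were not called. The count was 12 to 16 across the alternatives. The pigment cell list was also higher on the control arrays, and its part in the macrophage falls was not tested.

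The receptors by which macrophages take up glycans, lipoproteins and debris fell too. Of 12 mannose receptor and C-type lectin genes, 7 fell and 0 rose (median -1.40). Mrc1, the mannose receptor CD206, was at 7.63, 6.06 and 7.21 in Nrp1-deleted and 9.39, 8.63 and 9.57 in control cells (-2.23 ± 0.48, adjusted p = 0.00156), without overlap. The galactose lectin Mgl2 fell by 3.35 and Clec4n, the fungal receptor Dectin-2, by 2.04. Of 14 scavenger receptor genes, 7 fell (median -0.59), led by Stab1, which clears modified proteins, at 4.64, 4.06 and 4.80 against 7.64, 6.47 and 7.63 (-2.75 ± 0.25, adjusted p = 2.69e-08). Cd36 (-1.21), the scavenger and chemokine gene Cxcl16 (-1.31) and Folr2, a folate receptor (-1.10), fell, and Msr1 (-0.49) did not pass. Without Nrp1-deleted replicate 3, Folr2 was not called (-0.90, adjusted p = 0.138) and Msr1 was (-0.90, adjusted p = 0.00825). The scavenger count was 3 without control replicate 3.

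Of 18 complement genes, 9 fell and 1 rose. The receptor genes C3ar1 (-1.235, adjusted p = 0.0261) and C5ar1 (-1.23, adjusted p = 0.00621) were also called lower without Nrp1-deleted replicate 3. C2, the protease of the classical pathway, was at 3.99, 4.70 and 3.78 on Nrp1-deleted and 7.15, 7.65 and 7.0 on control arrays (-3.11 ± 0.27), with no overlap. Serping1, the C1 inhibitor (-1.84), and C4b (-1.83) fell as well. Of 17 lysosomal genes 10 fell (6 without Nrp1-deleted replicate 2), among them the protease Ctsl (-1.27) and the cathepsin inhibitor Cst3 (-1.13). Of 8 Fc receptor genes 5 fell and the IgE receptor chain Fcer1a rose, with 2 falling without Nrp1-deleted replicate 2 and 3 without control replicate 3. Of 15 Toll-like receptor genes 6 fell, Tlr3 most (-1.86), and 3 did without Nrp1-deleted replicate 2. Of 15 matrix metalloproteinases and inhibitors 7 fell, among them Mmp12, the macrophage elastase (-2.57). That count was 4 without Nrp1-deleted replicate 1 or 2 or control replicate 3.

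**Figure D1:**
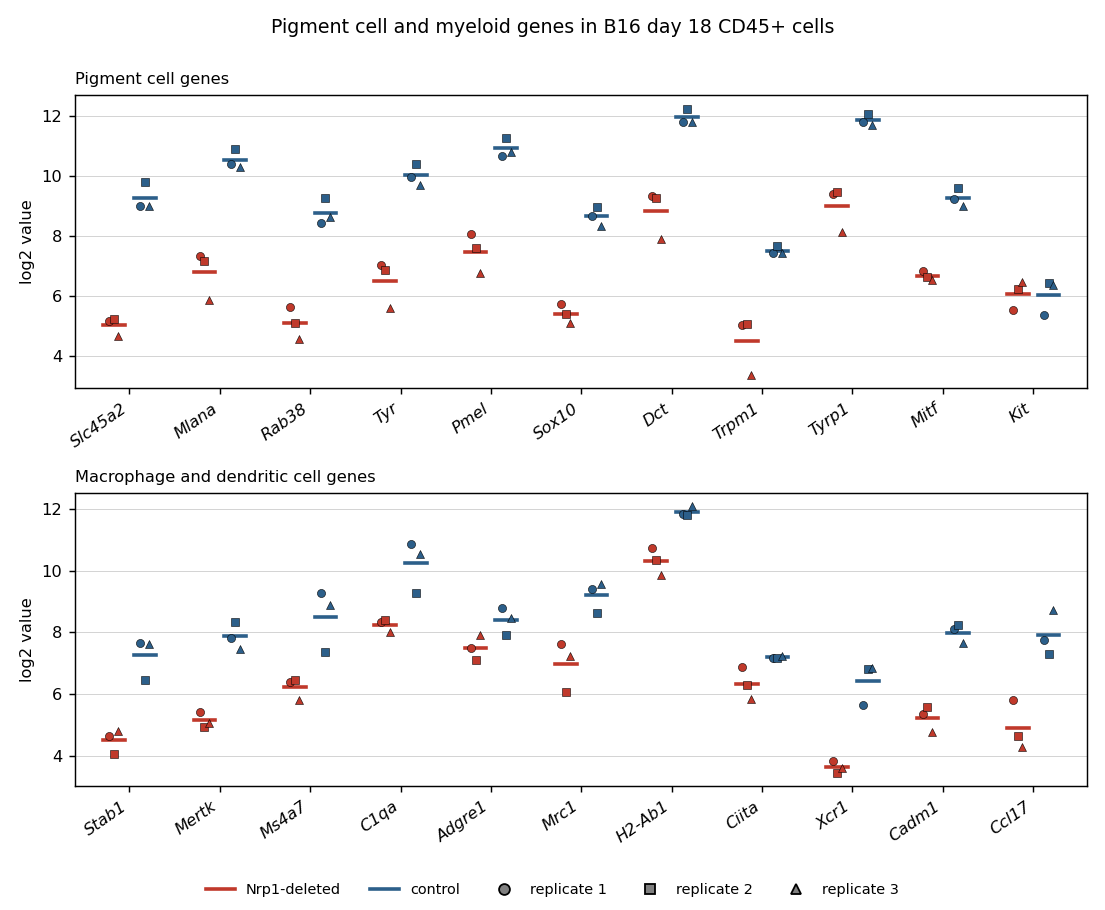
Log2 intensity (vertical axis) of pigment cell genes (top) and of macrophage, MHC class II and dendritic cell genes (bottom) on each of the 3 Nrp1-deleted and 3 control arrays of B16 tumours at day 18. Symbols mark replicates and short bars group means. Slc45a2 lay at 4.66 to 5.25 in Nrp1-deleted and 8.99 to 9.80 in control cells, while Kit overlapped.

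Transcripts of MHC class II genes were lower on Nrp1-deleted arrays. Of 12 genes, 10 fell and 0 rose (median -1.05), and all 10 lay below the control arrays without overlap. Cells place peptides on these molecules for CD4 T cells, and their promoters share a set of elements that includes the CCAAT box read by NF-Y. The promoters of H2-Aa at chr17:34287824-34288073 (minus strand) and H2-Eb1 at chr17:34305617-34305866 (plus strand), which encode an alpha and a beta chain, are shown with that box, GATTGG or CCAATC, in capitals (RefSeq, GRCm38.p6, 250 bases before the start).
H2-Aa: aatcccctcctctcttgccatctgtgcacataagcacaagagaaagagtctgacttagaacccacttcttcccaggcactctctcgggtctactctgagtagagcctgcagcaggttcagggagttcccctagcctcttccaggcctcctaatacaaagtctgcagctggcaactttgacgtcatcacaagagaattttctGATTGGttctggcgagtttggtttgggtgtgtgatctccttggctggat
H2-Eb1: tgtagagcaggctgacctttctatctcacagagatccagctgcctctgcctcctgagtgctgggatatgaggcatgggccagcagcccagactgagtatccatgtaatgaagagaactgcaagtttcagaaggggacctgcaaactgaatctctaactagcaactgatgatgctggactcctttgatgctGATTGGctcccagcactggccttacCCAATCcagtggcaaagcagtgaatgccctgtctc
The box was found in 8 of 8 list members with a promoter entry and in 16.6% of 27025 genes with an entry, on either strand.

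H2-Ab1, the beta chain of I-A, was at 10.74, 10.36 and 9.87 on Nrp1-deleted arrays and 11.84, 11.80 and 12.08 on control arrays (-1.58 ± 0.20, adjusted p = 3.74e-06). H2-Aa fell by 1.04, H2-Eb1 by 1.45 and the invariant chain Cd74 by 1.06. The peptide exchange genes H2-DMb1 (-1.46) and H2-Ob (-2.30) fell with them. Ciita, the master regulator of the class, was at 6.88, 6.28 and 5.84 against 7.16, 7.18 and 7.24 (-0.86 ± 0.26, adjusted p = 0.0206, or -0.61 and 0.125 without Nrp1-deleted replicate 3). Nrp1-deleted replicate 3 was lowest for all 4 of H2-Ab1, H2-Aa, H2-Eb1 and Ciita, and no groups overlapped. H2-Eb2 (-0.04) and H2-Ea (-0.38) were not called.

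Dendritic cell genes fell along with them. Of 11 genes of type 1 conventional dendritic cells, which cross-present antigen to CD8 T cells, 9 fell (median -1.69). Xcr1, the chemokine receptor that marks them, was at 3.82, 3.45 and 3.61 in Nrp1-deleted and 5.65, 6.82 and 6.83 in control cells (-2.81 ± 0.42, adjusted p = 2.9e-05). The adhesion gene Cadm1 (-2.77), the cross-presentation gene Wdfy4 (-1.51) and the factor Batf3 (-1.0) fell, and the factor Irf8 (0.10, adjusted p = 0.619), which other leukocytes also express, did not pass. Of 10 genes of type 2 and monocyte-derived dendritic cells, 7 fell (4 without control replicate 3). Among the 16 measured genes of mature dendritic cells there were 6 falls and 1 rise. Ccl17, a chemokine for CCR4 that draws Treg and helper T cells, was at 5.79, 4.64 and 4.29 against 7.75, 7.29 and 8.73 (-3.02 ± 0.51, adjusted p = 0.000125), and its neighbour Ccl22 fell by 2.75. The interleukin-12 subunit Il12b (-2.18), the actin bundler Fscn1 (-1.88) and Cd83 (-1.58) fell, whereas Cd80 (-0.70), Cd86 (-0.09) and Cd40 (-0.14) were not called and Il15ra rose by 0.53. Without Nrp1-deleted replicate 3, Cd80 was called (-1.23, adjusted p = 1.72e-05) and Il15ra was not (0.57, adjusted p = 0.057).

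**Figure D2:**
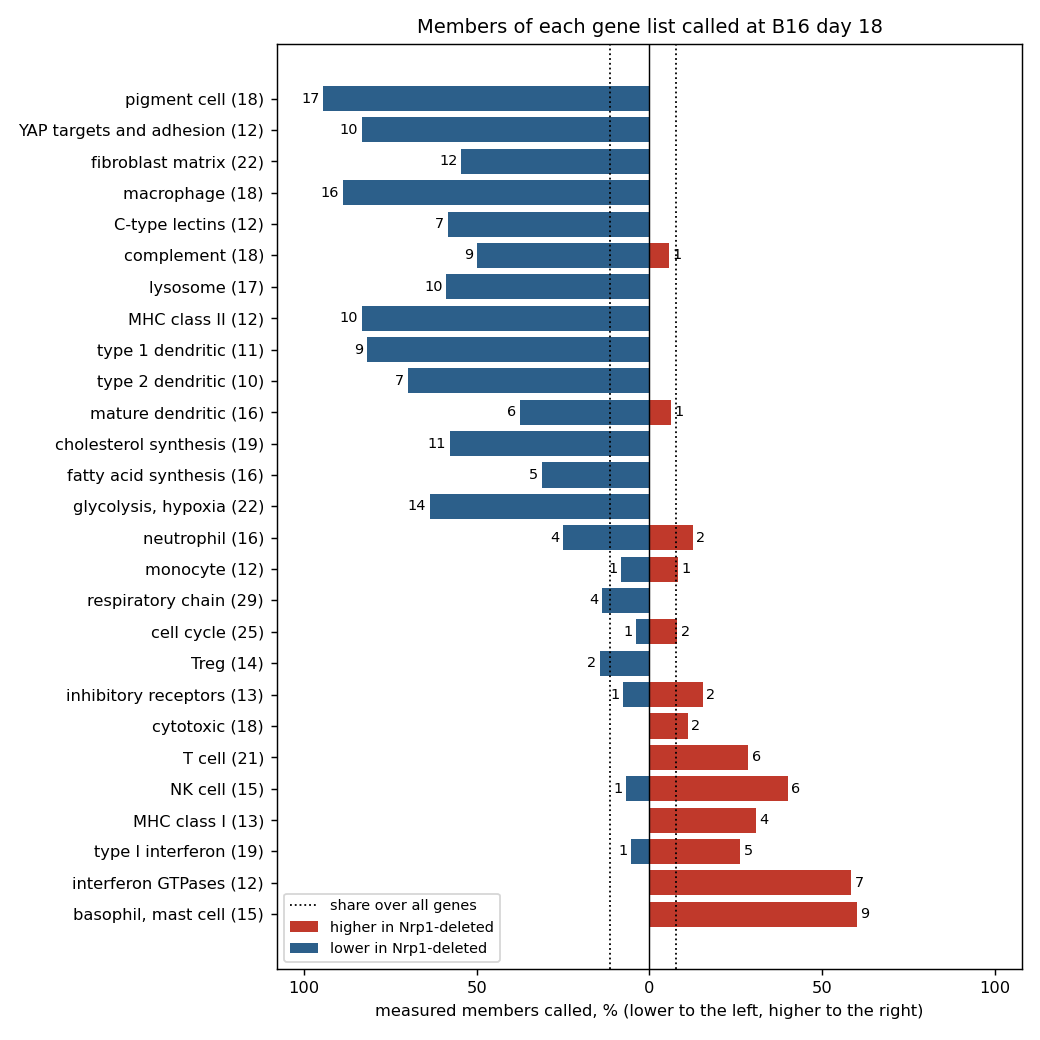
Share of the measured members of each gene list called lower (left) or higher (right) on Nrp1-deleted against control arrays at day 18, in percent. Numbers are the counts of genes and dotted lines mark the shares over all genes, 11.3% lower and 7.54% higher. Pigment cell (17 of 18), macrophage (16 of 18) and MHC class II (10 of 12) lists lay far to the left and basophil and mast cell genes (9 of 15) to the right.

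Neutrophil-attracting chemokines fell, but 1 array carried a different pattern. Of 6 genes of this group with the platelet chemokines, 4 fell (median -2.69). Pf4, platelet factor 4, which macrophages also make, was at 5.26, 5.19 and 5.70 on Nrp1-deleted and 9.95, 8.79 and 9.90 on control arrays (-4.16 ± 0.50, adjusted p = 1.4e-06), and its cluster neighbour Ppbp fell by 3.83. Cxcl1, a ligand of the neutrophil receptor CXCR2, was at 3.69, 3.46 and 7.78 against 8.68, 8.41 and 9.55 (-3.91 ± 0.68). Nrp1-deleted replicate 3 thus lay near the control arrays for Cxcl1, and without it the difference was -5.31. The same array stood out for the alarmins S100a8 (3.79, 3.51 and 7.80 against 8.07, 7.07 and 8.64, difference -2.89) and S100a9 (4.37, 3.70 and 7.34 against 8.47, 7.36 and 9.31, difference -3.24). Without it they differed by -4.28 and -4.34. Of 16 neutrophil genes, 4 fell and 2 rose, where 11.3% of all genes fell and 7.54% rose. Without Nrp1-deleted replicate 1 or 2, 2 neutrophil genes fell (9.56% and 8.7% of all genes did). Granule genes such as Ltf (-0.13) and Ngp (-0.23) were not called. Il1b, the inflammatory cytokine, was likewise high on Nrp1-deleted replicate 3 (10.16, 9.35 and 11.63 against 11.60, 11.22 and 11.72, difference -1.13). Of 13 inflammatory cytokine genes 2 rose and 2 fell. Without that array 3 rose and 9 fell, where 7.98% of all genes rose and 11.4% fell.

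Lipid genes fell in part. Of 16 fatty acid synthesis genes under the transcription factor SREBP1, 5 fell and 0 rose (median -0.17), and the 5 were desaturases, an acyl-CoA synthetase and malic enzyme. Scd1, the delta-9 desaturase, was at 4.83, 4.49 and 3.86 in Nrp1-deleted and 7.53, 7.80 and 7.75 in control cells (-3.30 ± 0.28, adjusted p = 1.12e-08), with no overlap. Acsl3 (-2.68), Fads2 (-2.46), Me1 (-2.24) and Fads1 (-1.43) fell too, whereas the core enzymes Fasn (-0.25) and Acaca (-0.11) did not pass. Of 19 cholesterol synthesis genes under SREBP2, 11 fell and 0 rose (median -0.57), among them Hmgcs1 (-1.29), Mvd (-0.90) and Msmo1 (-0.84). That count was 7 without control replicate 1, 6 without control replicate 3 and 7 without Nrp1-deleted replicate 2. Of 18 uptake and efflux genes 7 fell (4 without control replicate 3) and 1, the cholesterol exporter Abcg1 (0.39), rose, which did not pass without Nrp1-deleted replicate 3 (adjusted p = 0.0723). Apoe (-1.80), the lipid droplet protein Plin2 (-1.09) and the fatty acid carriers Fabp4 (-1.54) and Fabp5 (-1.05) were among those that fell. The pigment cell list differed in the same direction on the same arrays, and its part in the lipid falls was not tested. In MC38 at day 12, where the pigment cell median was 0.07, the cholesterol synthesis median was -0.62. The fatty acid synthesis median there was -0.21 and that of uptake and efflux genes -0.04.

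Hypoxia and glycolysis genes fell as a group of modest changes with a few large ones. Of 22 members, 14 fell and 0 rose (median -0.38). Car9, the carbonic anhydrase induced by low oxygen, was at 5.80, 5.91 and 5.09 on Nrp1-deleted and 8.72, 9.33 and 8.67 on control arrays (-3.31 ± 0.21, adjusted p = 2.89e-10), without overlap. The vessel growth factor Vegfa (-1.46), adrenomedullin (Adm, -1.63) and the mitophagy receptor Bnip3 (-0.87) fell, and glycolytic enzymes such as Tpi1 (-0.37), Pgk1 (-0.31) and Hk2 (-0.63) moved by less. The glucose transporter Slc2a1 (-0.40) and Hif1a (0.22) did not pass, although Slc2a1 did without Nrp1-deleted replicate 3 (-0.62, adjusted p = 0.00214). The count was 8 without control replicate 2 or Nrp1-deleted replicate 2 and 9 without Nrp1-deleted replicate 1. The part of pigment cell RNA, which carries the same direction, was not tested.

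The largest rise at day 18 was in basophil genes. Of 15 basophil and mast cell genes, 9 rose and 0 fell (median 2.02), where 7.54% of all genes rose. Mcpt8, the protease that marks mouse basophils, was at 8.76, 7.83 and 5.57 on Nrp1-deleted arrays and 3.10, 2.78 and 4.67 on control arrays (3.87 ± 0.59, 14.6-fold, adjusted p = 4.01e-05). Gata2, the transcription factor of the lineage, was at 8.73, 7.01 and 4.71 against 3.86, 3.83 and 4.21 (2.85 ± 0.59). The interleukin-4 gene Il4, which basophils and helper T cells make, was at 8.22, 6.50 and 4.22 against 3.31, 3.0 and 3.62 (3.0 ± 0.60). In each of them replicate 1 was highest and replicate 3 lowest of the Nrp1-deleted arrays, and even replicate 3 lay above the control arrays. The chains of the high-affinity IgE receptor, Fcer1a (2.41 ± 0.63) and Ms4a2 (2.02 ± 0.51), the receptor Cd200r3 (2.11 ± 0.47) and the histamine-forming enzyme Hdc (2.16 ± 0.56) rose, Cd200r3 and Hdc with overlap between the groups. The list mean was 6.84, 6.11 and 4.94 against 4.28, 4.11 and 4.70.

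Members of the list known from mast cells were mostly not called. The tryptases Tpsb2 (0.18, adjusted p = 0.743) and Tpsab1 (0.12) and the chymases Cma1 (1.38, adjusted p = 0.0643) and Mcpt4 (-0.67) were not called, nor was Kit, while the carboxypeptidase Cpa3 rose by 1.68 ± 0.51. Without Nrp1-deleted replicate 3, Cma1 was called (1.67, adjusted p = 0.0396). Il6, a cytokine of many cells, was at 10.21, 9.05 and 8.25 in Nrp1-deleted and 6.09, 6.58 and 7.32 in control cells (2.50 ± 0.40, adjusted p = 6.88e-05), without overlap. In MC38, Il6 also rose, by 1.39 at day 12 (limma adjusted p = 0.0312) and 3.17 at day 18 (adjusted p = 0.00044). Mcpt8 moved there by 0.17 and 0.55 and was not called. The size of the basophil result depended on single arrays. Without Nrp1-deleted replicate 3, 10 members rose (7.98% of all genes did), the median was 2.91 and Mcpt8 differed by 4.78. Without Nrp1-deleted replicate 1, 5 rose (5.38% of all genes), the median was 1.31, and those 5 were Mcpt8, Gata2, Il4, Il6 and Cd200r3. On the 6 arrays alone, where 4.72% of all genes rose, Mcpt8, Gata2, Il4, Il6, Fcer1a and Cpa3 stayed called. Hdc (adjusted p = 0.0616), Ms4a2 (adjusted p = 0.0724) and Cd200r3 (adjusted p = 0.0787) did not pass in that fit. Eosinophil genes were not called in either direction, with 0 of 7, including Epx (0.11) and Siglecf (0.11). Alox15 of that list was called without Nrp1-deleted replicate 3 (1.09, adjusted p = 0.000398).

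T cell genes were higher on every Nrp1-deleted array than on every control array. This held for all 21 measured members, where it held for 13.6% of all genes, and the median difference was 0.74. In the model of all arrays, 6 of the 21 rose and 0 fell. Satb1, a chromatin organiser of T cells, was between 9.62 and 10.17 on Nrp1-deleted arrays and between 8.59 and 8.99 on control arrays (1.20 ± 0.28, adjusted p = 0.00336). Prkcq, a kinase of receptor signalling, rose by 1.16 ± 0.30 and the factor Lef1 of naive and memory cells by 1.34 ± 0.26. Bcl11b (1.17), Cd247 (1.01) and Ubash3a (1.04) were the others called. The receptor and coreceptor genes Cd3e (9.43, 9.25 and 9.07 against 8.67, 8.79 and 8.34, 0.65 ± 0.30) and Cd8a (10.86, 10.85 and 11.09 against 10.26, 10.44 and 10.08, 0.67 ± 0.38) did not overlap either, yet did not pass (adjusted p = 0.153 and 0.251). When only the 6 arrays entered the fit, 20 of the 21 rose (4.72% of all genes) and the exception was Cd4.

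Of 18 cytotoxic genes, 2 rose and 0 fell (median 0.52), a share near that of all genes. Fasl, the death ligand, was at 9.86, 10.26 and 9.68 in Nrp1-deleted and 8.63, 8.62 and 8.56 in control cells (1.33 ± 0.33, adjusted p = 0.00532), and Gzma, granzyme A, rose by 1.01 ± 0.27. Ifng (10.48, 10.73 and 10.57 against 9.87, 9.51 and 9.82, 0.86 ± 0.34) did not overlap but missed the threshold at an adjusted p = 0.0845, and Prf1 (0.76) and Gzmb (0.62) did not pass. On the 6 arrays alone, 7 rose (4.72% of all genes did), with Ifng, Nkg7 and Tbx21 among them. The granzymes Gzmd (4.48, 6.42 and 10.71 against 7.50, 9.04 and 10.87) and Gzme spread over several log2 units within each genotype and were not called, and without Nrp1-deleted replicate 3, Gzmd (-3.69), Gzme (-3.12) and Gzmc (-1.54) fell.

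Of 15 NK cell genes, 6 rose and 1, the Fc receptor Fcgr3, fell (median 0.76), where 7.54% of all genes rose and 11.3% fell. The activating receptor Ncr1 was at 7.52, 8.24 and 7.45 against 6.43, 6.52 and 6.84 (1.14 ± 0.31), and Klra7, a Ly49 receptor, was 1.19 ± 0.23 higher, both without overlap. The count of rises was 3 without Nrp1-deleted replicate 1 (5.38% of all genes rose) and 1, Klra7, without replicate 2 (4.69%). Of 13 inhibitory receptor and exhaustion genes, 2 rose, Cd160 (0.99 ± 0.24) and Cd244a (0.55, or 0.41 with an adjusted p = 0.0732 without Nrp1-deleted replicate 3), and Nr4a1 fell (-0.46). In this list 5 rose on the 6 arrays alone, where 4.72% of all genes did. Pdcd1, which encodes PD-1 (0.61, adjusted p = 0.327), and Lag3 (0.96, adjusted p = 0.179) did not pass. Of 13 helper cytokine genes 3 rose, Il4, the T cell growth factor Il2 (1.38 ± 0.30) and Il21 (1.04 ± 0.29). In that list, Ltb also rose (0.88, adjusted p = 0.0333) and Tnf fell (-1.06, adjusted p = 0.00429) without Nrp1-deleted replicate 3.

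**Figure D3:**
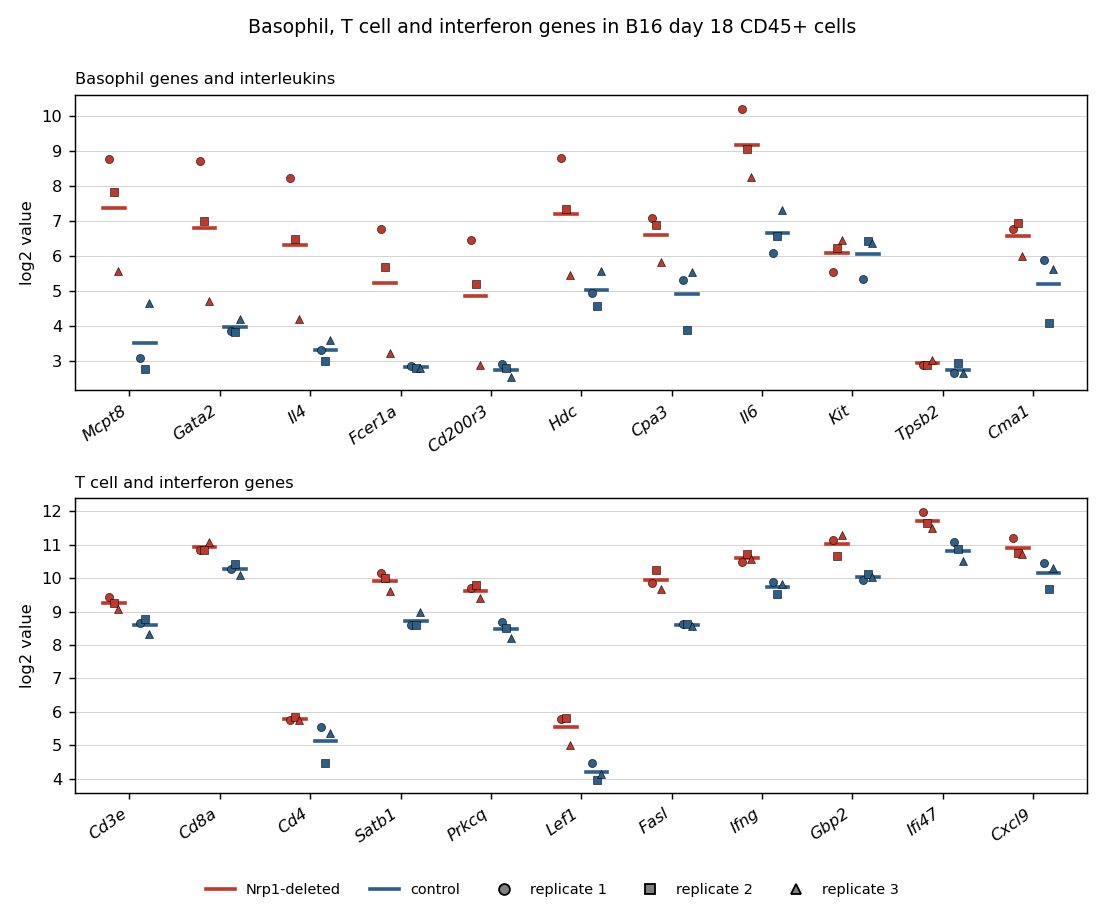
Log2 intensity (vertical axis) of basophil and mast cell genes (top) and of T cell, cytotoxic and interferon genes (bottom) on each of the 3 Nrp1-deleted and 3 control arrays of B16 tumours at day 18. Symbols mark replicates and short bars group means. Mcpt8 lay at 5.57 to 8.76 in Nrp1-deleted and 2.78 to 4.67 in control cells, and Cd3e at 9.07 to 9.43 against 8.34 to 8.79.

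Interferon-inducible GTPases rose. These proteins act in cell-autonomous defence and are induced by interferon gamma through interferon-stimulated response elements. Of 12 measured members, 7 rose and 0 fell (median 0.58), a count of 6 to 8 across the alternatives. The promoters of Gbp2 at chr3:142620413-142620662 (plus strand) and Igtp at chr11:58199306-58199555 (plus strand) are shown because they hold the motif GAAANNGAAA of such elements, or its reverse complement TTTCNNTTTC. It was found in 7 of 8 members with an entry and in 3.46% of 27025 genes with an entry. Capitals mark the motif (RefSeq, GRCm38.p6, 250 bases before the start).
Gbp2: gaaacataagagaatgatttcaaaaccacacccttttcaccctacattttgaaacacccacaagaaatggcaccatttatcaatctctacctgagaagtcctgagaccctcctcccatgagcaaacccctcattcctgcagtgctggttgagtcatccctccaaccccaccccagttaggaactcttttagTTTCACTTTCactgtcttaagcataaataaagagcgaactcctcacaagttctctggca
Igtp: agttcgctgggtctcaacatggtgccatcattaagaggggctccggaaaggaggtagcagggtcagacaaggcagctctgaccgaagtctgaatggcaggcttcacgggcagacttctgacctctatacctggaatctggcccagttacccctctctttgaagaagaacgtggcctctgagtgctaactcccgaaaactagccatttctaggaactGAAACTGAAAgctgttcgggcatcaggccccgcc
Gbp2, a guanylate-binding protein, was at 11.14, 10.67 and 11.29 on Nrp1-deleted arrays and 9.95, 10.12 and 10.02 on control arrays (1.00 ± 0.13, adjusted p = 5.55e-06). Ifi47 (0.88 ± 0.15), Igtp (0.73 ± 0.18), Gbp7 (0.66) and Gbp10 (0.88) rose, and the groups of these 5 did not overlap. Irgm2 (0.53), Tgtp1 (0.37) and Iigp1 (0.09) were not called, although Irgm2 was without Nrp1-deleted replicate 3 (0.88, adjusted p = 0.0112).

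Other genes under interferon moved by small amounts and not all the same way. Of 11 genes of interferon gamma chemokines and checkpoint ligands, 4 rose (2 without Nrp1-deleted replicate 1) and 2 fell. Cxcl9, a chemokine for activated T cells, was at 11.21, 10.76 and 10.72 against 10.46, 9.68 and 10.30 (0.75 ± 0.17, adjusted p = 0.00256), with no overlap. The receptor chain Ifngr1 (0.63 ± 0.09), the factor Irf1 (0.47) and the feedback inhibitor Socs1 (0.86) rose. The other receptor chain, Ifngr2 (-0.60), and Ciita fell. Cd274, which encodes PD-L1 (0.28), and Cxcl10 (0.28 ± 0.14, adjusted p = 0.201) did not pass. Of 13 MHC class I genes, 4 rose and 0 fell, namely the class activator Nlrc5 (0.60 ± 0.15), the peptide loading protein Tapbp (0.40 ± 0.08), Erap1 and Psmb10, a count of 2 without control replicate 3 and 7 without Nrp1-deleted replicate 3. The heavy chain H2-K1, among the brightest genes, was 0.07 ± 0.06 higher and did not pass. Of 19 type I interferon-stimulated genes, 5 rose, with Cmpk2 (0.93), Oas3 (0.92) and Ifit1 (0.90) at the top, and Oas2 fell (-0.67). That count of rises was 3 without control replicate 3 or without Nrp1-deleted replicate 1 or 3.

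**Figure D4:**
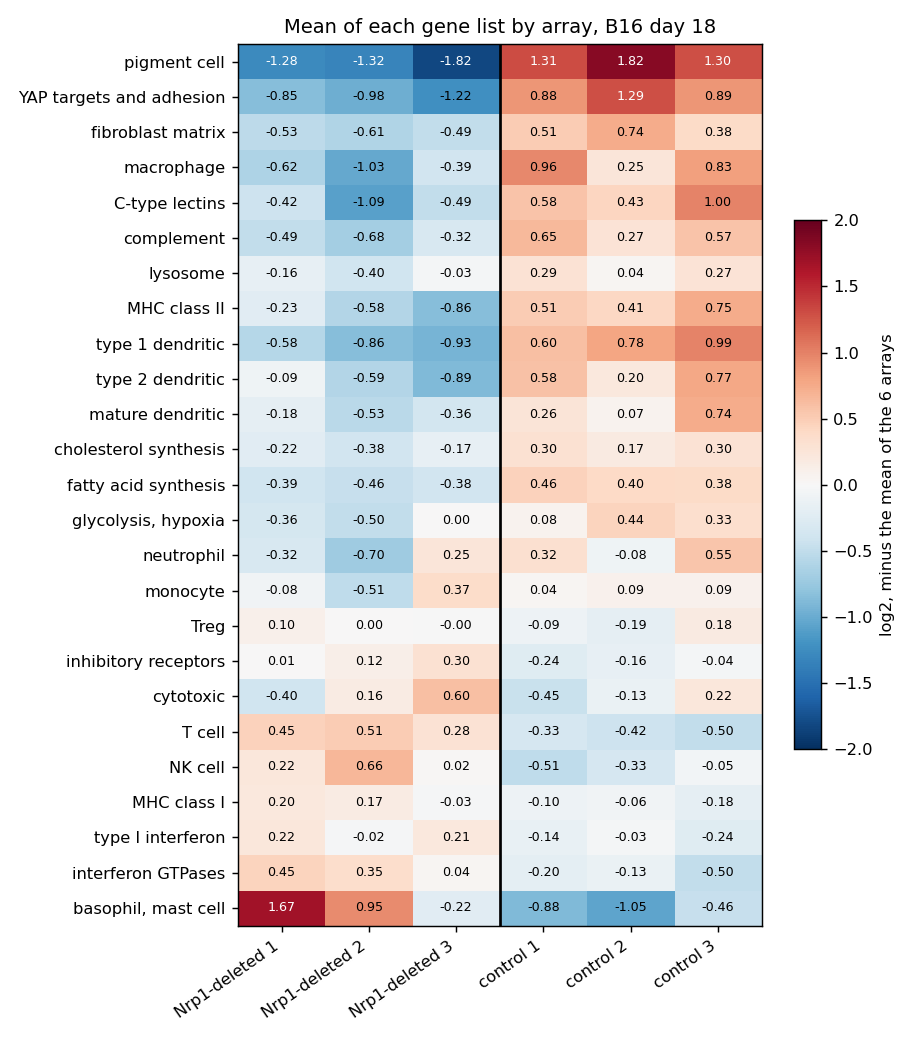
Mean log2 intensity of the members of each gene list on each array, after subtraction of the mean over the 6 arrays of B16 tumours at day 18. Colour gives the difference in log2 units, with Nrp1-deleted arrays left of control arrays. Pigment cell genes lay 1.28 to 1.82 below the mean on Nrp1-deleted arrays and 1.30 to 1.82 above it on control arrays.

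The effect at day 18 was then set against that at day 12 in the same tumour, with 2 arrays a genotype, where 1333 genes rose (7.8%) and 1567 fell (9.17%). No arrays are shared between the comparisons, but the deposited values of these days differ in distribution, so time and array set cannot be told apart. Of the day 18 calls, 613 of the higher (47.6%, and 46.0% of those at day 12) and 877 of the lower genes (45.5%, and 56.0% at day 12) were called in the same direction at both days. The effects differed for 1038 genes (6.07%), above 0 for 550 (3.22%) and below 0 for 488 (2.85%). For macrophage genes the fall was smaller at day 18: the difference of effects was above 0 for 13 of 18 members, and the median effect was -1.41 at day 18 and -3.29 at day 12. Csf1r fell by 0.64 at day 18 and by 2.89 at day 12 (difference 2.26, adjusted p = 1.43e-05), and Cd68 likewise by 0.95 and 3.28 (difference 2.33, adjusted p = 0.000101). Stab1 (-2.75 and -3.26, difference 0.51) and Mertk (-2.72 and -2.31, difference -0.41) showed no called difference. Lysosomal genes (11 of 17 above 0), Toll-like receptors (8 of 15) and lipid uptake genes (8 of 18) shifted the same way.

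Cxcl9, Cxcl10 and Gbp2 had opposite signs at the later and the earlier day, Cxcl10 without a call at day 18. Gbp2 was the 1 of 12 interferon-inducible GTPases with a called difference between the days. The median of that list was 0.58 at day 18 and 0.26 at day 12. Cxcl9 was higher by 0.75 at day 18 and fell by 1.23 at day 12 (difference 1.97, adjusted p = 5.46e-05), Gbp2 stood at 1.00 and -0.82 (difference 1.82, adjusted p = 1.14e-05), and Cxcl10 at 0.28 and -1.68 (difference 1.96, adjusted p = 1.14e-05). Of 19 type I interferon-stimulated genes, 8 had a difference above 0. Pigment cell genes fell further at day 18, with 9 of 18 differences below 0 and medians of -3.07 and -1.65. Slc45a2 differed by -4.24 at day 18 and -1.75 at day 12 (difference -2.49, adjusted p = 0.000735). T cell genes gave 0 of 21 called differences, with medians of 0.74 and 1.02, and basophil genes gave 1 of 15.

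Against MC38 tumours the effect differed for 791 genes at day 12 (4.63%; above 0 for 1.3% and below for 3.33%), whose arrays belong to the same set, and for 878 genes at day 18 (5.14%; above for 1.26%, below for 3.87%). Of the 791, 222 lay above and 569 below 0, or 152 and 720 after cyclic loess. The number above 0 was 120 without Nrp1-deleted replicate 2, 135 without control replicate 2 and 369 without Nrp1-deleted replicate 3. Against MC38 day 18 the 216 above 0 became 107 without Nrp1-deleted replicate 2, 139 without control replicate 2 and 125 without control replicate 3. Pigment cell genes had 17 of 18 differences below 0 in both cases. Of type 1 dendritic cell genes, 6 and 7 of 11 were below 0, and of macrophage genes 6 and 5 of 18. Stab1 fell by 2.75 in B16 at day 18 and moved by -0.07 in MC38 at day 12 (difference -2.68, adjusted p = 3.34e-05), and C1qc fell by 1.93 and moved by -0.12 (difference -1.81, adjusted p = 0.00644). Mcpt8 rose by 3.87 in B16 at day 18, and its difference to the effect in MC38 was 3.70 at day 12 (adjusted p = 0.0088) and 3.31 at day 18 (adjusted p = 0.0389). No other of the 15 basophil and mast cell genes had a called difference in either case. Gata2 (2.71, adjusted p = 0.0634) and Il4 (2.35, adjusted p = 0.117) did not pass against MC38 day 12. T cell, cytotoxic and NK cell genes gave 0 called differences against MC38 day 12 among 21, 18 and 15 members.

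**Figure D5:**
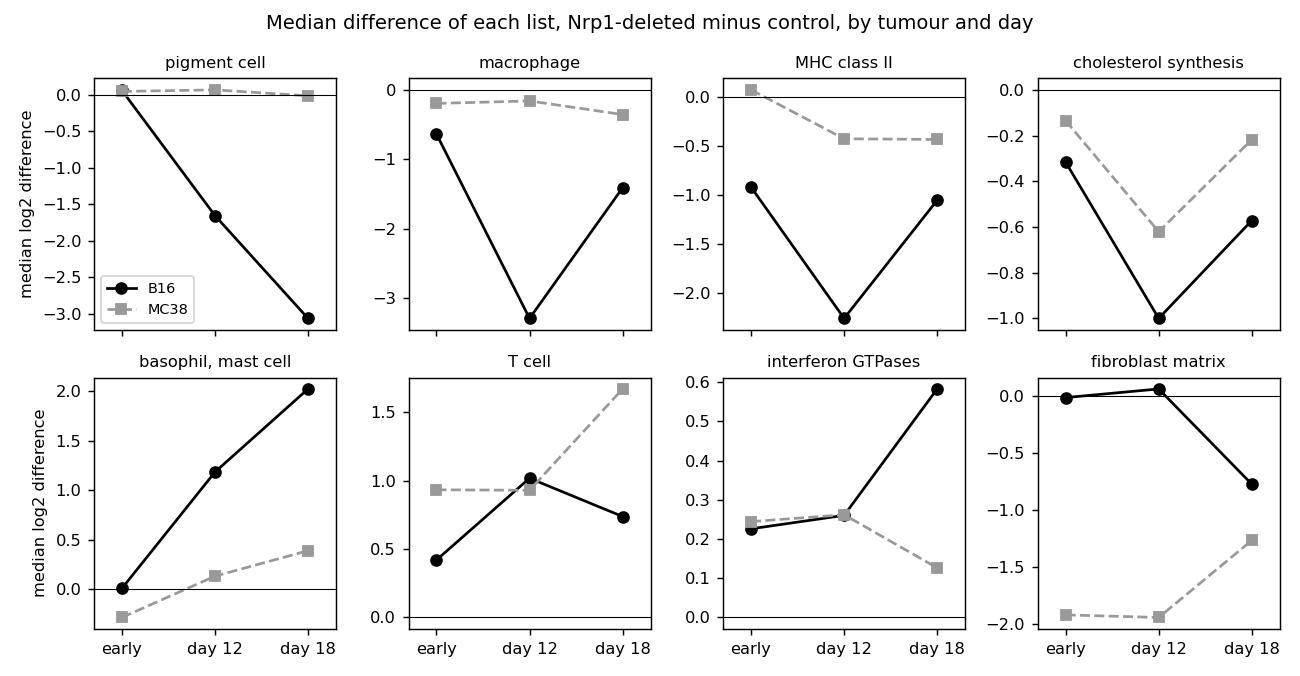
Median difference over the measured members of 8 gene lists (vertical axis, log2, Nrp1-deleted minus control, on a scale of its own in each panel) in B16 and in MC38 tumours at the early time, day 12 and day 18. The macrophage median was -0.64, -3.29 and -1.41 in B16 and the T cell median 0.42, 1.02 and 0.74, and the basophil and mast cell median reached 2.02 at day 18 in B16.

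Among the 15 largest rises, those not yet described were Igk-V21, an immunoglobulin light chain segment (5.22, 4.80 and 4.92 against 3.19, 2.39 and 3.01, difference 2.11 ± 0.22), Flt1, a receptor for vascular growth factor that myeloid cells also carry (1.67 ± 0.25), Fyco1, an autophagosome transport adaptor (1.64 ± 0.19), and Bach2, a repressor of effector differentiation in lymphocytes (1.53 ± 0.21). Genes were named here only if their groups did not overlap, so the lack of overlap is no result about them. Ifitm10 (1.80), Fam20a (1.63), Nr2c2 (1.61), Gbp2b (1.51) and Apol7b (1.46) complete the rises, and Fam20a was not called without Nrp1-deleted replicate 3 (0.97, adjusted p = 0.107). The falls of that size outside the lists were in Syngr1, a vesicle protein (-3.89), Ptgds, prostaglandin D2 synthase (-3.80), Sparcl1 (-3.78), Gask1b (-3.74) and Syt4, a synaptotagmin (-3.66). Ptgds stood at 6.67, 6.51 and 5.99 against 10.11, 10.29 and 10.16.

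Other lists held fewer calls. The cell cycle rises and the respiratory chain falls were near the shares over all genes, 7.54% higher and 11.3% lower. Of 25 cell cycle genes, the helicase subunits Mcm4 (0.41) and Mcm6 (0.37) rose, Ccnd1, cyclin D1, fell (-1.46), and Mki67 (0.12) and Top2a (0.23) were not called. Without Nrp1-deleted replicate 1, 5 cell cycle genes rose (5.38% of all genes did). Of 29 respiratory chain genes 4 fell and 0 rose (median -0.09), a count of 1 without control replicate 1, 2 without Nrp1-deleted replicate 1 or 3 and 0 on the 6 arrays alone. Of 12 monocyte genes, Spn rose (0.86) and Nr4a1 fell, and the recruitment receptor Ccr2 (0.30) did not pass. Without Nrp1-deleted replicate 3, 3 monocyte genes fell. Of 11 heat shock and housekeeping genes, which can mark handling stress and RNA quality, 4 fell and 0 rose (median -0.36), namely the chaperone genes Bag3 (-0.99), Hsp90aa1 (-0.46) and Hspe1 (-0.36) and the glycolytic gene Gapdh (-0.19). Hspa1b (-0.76) and Actb (0.02) were not called, and the list mean was 10.90 to 11.05 on Nrp1-deleted and 11.15 to 11.51 on control arrays. On the 6 arrays alone, Hspa1b (adjusted p = 0.00562) and the chaperone gene Dnajb1 (-0.68, adjusted p = 0.0409) fell too, and Gapdh did not pass (adjusted p = 0.0987). The count of falls was 2 without control replicate 2 or 3 or Nrp1-deleted replicate 1 or 2.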

How the data were processed

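CD45+ cells were sorted from tumours and lysed without culture, and biotin-labelled cRNA was made by 2-cycle amplification, per the labels' protocols. The authors deposited log2 intensities, and the submitters' processing notes name RMA and Partek 6.6 as tools. Scanner files were not used here. Precision is limited by how many arrays each group has. Of 45141 probe sets, 28898 named 1 gene, 551 several and 15692 none (104 of them controls). The probe table's symbols can be old. Each of 17097 genes was read from its brightest probe set by mean log2 value across the 28 arrays. A limma 3.58.1 model (R 4.3.3) with 12 group means, variance trend and Benjamini-Hochberg adjustment at 0.05 gave all 2-sided tests and was tested on simulated data.

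By the shape of their values the arrays form 3 sets, and levels from different sets may not share a scale. B16 day 18 and MC38 day 12 share a set.

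Named genes were Nrp1, the 15 largest non-overlapping rises and falls whose higher group mean exceeded the median of all values, list members with the smallest adjusted p or that define a list, and 5 differences of each sign. The members and the 51 lists (671 of 770 genes measured) were chosen with earlier results of these data known. Alternatives changed the probe set rule, dim filter, centring, normalization, variance model, arrays fitted, replicate block and array weights, or left out an array. Same-numbered arrays of both genotypes deviated together at r of 0.095, 0.103 and 0.196, so the numbers were not taken as pairs. Promoters are from RefSeq, GRCm38.p6.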

Additional observations from a re-analysis of the deposited data

Results flagged for a closer look

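The effect of Nrp1 deletion in B16 tumours at day 18 differed, by a test of the difference itself in limma, from that in MC38 tumours at day 12 for 791 genes, from that in B16 tumours at day 12 for 1038 genes and from that in MC38 tumours at day 18 for 878 genes. Differences below are the effect at B16 day 18 minus the other effect, in log2 units, and all passed an adjusted p of 0.05.

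Against MC38 day 12, the differences above 0 were led by the basophil protease Mcpt8 (3.70), the light chain segment Igk-V21 (2.10), the endosomal protein Plekhf1 (1.77), Fut7, which builds selectin ligands (1.38), and Arxes2 (1.35). Those furthest below 0 were the pigment cell genes Slc45a2 (-4.35) and Tyr (-3.67), the platelet chemokines Ppbp (-4.22) and Pf4 (-4.00), and the glycine receptor subunit Glrb (-3.58). The effect of Arxes2 at B16 day 18 itself was not called without Nrp1-deleted replicate 3 (0.54, adjusted p = 0.191).

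Against MC38 day 18, Mcpt8 (3.31), Igk-V21 (2.01), the helicase Ddx43 (1.61), Fut7 (1.41) and Plekhf1 (1.39) lay above 0. The alarmins S100a9 (-5.39) and S100a8 (-4.91), Slc45a2 (-4.49), Arg2, arginase 2 (-4.41), and the receptor kinase Met (-4.31) lay below. Part of these differences lay in MC38 at day 18, where S100a9 was higher by 2.15, S100a8 by 2.02, Arg2 by 2.56 and Met by 1.31. Of these only Arg2 was called there. At B16 day 18 the effects were -3.24, -2.89, -1.85 and -3.00. On Nrp1-deleted replicate 3, S100a8, S100a9 and Arg2 were at 7.80, 7.34 and 6.72, against 3.47 to 4.37 on the other pair, so these 3 values rest on arrays that differ among themselves. For S100a8 and Arg2 the groups overlapped.

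Against B16 day 12, the differences furthest above 0 were those of arginase 1 (Arg1, 4.94), the endocytic adaptor Dab2 (4.20), the receptor Flt1 (4.01), Mrc1 (3.56) and the collagenase Mmp13 (3.16). Arg1 fell by 1.24 at day 18 and by 6.18 at day 12, and Flt1 was higher by 1.67 at day 18 and fell by 2.34 at day 12. Below 0 were the ephrin receptor Epha3 (-3.88), Cfap54 (-3.06), the pigment gene Oca2 (-3.04), Rec114 (-2.94) and Mgll, monoacylglycerol lipase (-2.92). Mgll stood at 3.88, 3.55 and 3.70 on Nrp1-deleted and 6.82, 7.75 and 7.19 on control arrays at day 18.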

How the results depend on the processing

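The 15 alternatives reversed no direction that was called in the main model or in the alternative, among 50 genes named for size and Nrp1 and 644 other list genes. Genes called in neither could change sign, as Rsad2 did without Nrp1-deleted replicate 3 (-0.02, against 0.25 on the 6 arrays alone). No list median reversed either, with medians close to 0 not counted. Of the 50, 40 were called in every alternative, and the others lost the call in some (52 of their values, with Arg1 in 8 alternatives). Leaving out 1 array gave 2290 to 3309 called genes at B16 day 18, 537 to 1098 differences to MC38 day 12, 884 to 1149 to B16 day 12, and 583 (without Nrp1-deleted replicate 2) to 1102 to MC38 day 18. A fit on the compared groups only called 2141 genes at day 18 (2040 shared, 63.4% of the 3217) and 515 differences to MC38 day 12, with fewer arrays behind each variance. With the replicate block, 2828 genes were called, 1036 higher and 1792 lower, although the numbers were not taken as pairs. Each Nrp1-deleted array correlated best with its own number, a hint from the data and not from the design. Cyclic loess gave 152 differences above and 720 below 0 to MC38 day 12, against 222 and 569. The fit on the 6 arrays alone raised the T cell count to 20 of 21, and the cause was not tested. That fit took the call from other genes, among them Hdc, Ms4a2, Cd200r3, Il1b (adjusted p = 0.139), Retnla (adjusted p = 0.141), Pparg (adjusted p = 0.07) and Arg1 (adjusted p = 0.0598). Fam20a was no longer called without Nrp1-deleted replicate 3 (0.97, adjusted p = 0.107) or Fcer1a without replicate 1 (adjusted p = 0.0815). Genes below the median of 4.64 on all 6 arrays, 7864 in number, have little signal over background.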

Other observations

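Blood and vessel markers were mixed, where 7.54% of all genes rose and 11.3% fell. Of 9 erythroid and platelet genes, 3 fell, Pf4, Ppbp and the haemoglobin gene Hba-a1 (7.76, 6.25 and 7.78 in Nrp1-deleted against 9.57, 10.39 and 10.62 in control cells, -2.93 ± 0.82), while the platelet genes Gp9 (0.10) and Itga2b (0.61) were not called, although Itga2b was without Nrp1-deleted replicate 3 (0.88, adjusted p = 0.0255). Of 12 endothelial genes Flt1 and Pecam1 (0.75) rose and Vwf fell (-1.02), and Cdh5 (-0.02), Kdr (-0.02) and Tek (-0.02) were not called. Of 15 B and plasma cell genes, Prdm1, a regulator of effector and plasma cell fate, rose (0.90 ± 0.15), as did Iglv1 (8.51, 8.84 and 6.23 against 5.35, 4.11 and 7.08, 2.35 ± 0.68), whose groups overlap. Ms4a1 (0.29), Cd79a (-0.03) and Jchain (0.29) were not called.

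Signalling and small metabolic lists held a few calls each, where 7.54% of all genes rose and 11.3% fell. Of 11 monocyte chemokine genes, Csf1 (0.94 ± 0.24), Ccl4 (0.56) and Ccl3 (0.48) rose and Ccl8 fell (-1.57), but 0 rose without Nrp1-deleted replicate 1, 1 without replicate 2 and 1 without control replicate 2, and 3 fell without Nrp1-deleted replicate 3. Of 6 interleukin-12 family genes, the receptor chain Il12rb1 rose (1.09 ± 0.29) and Il12b and Ebi3 fell. Of 13 TGF-beta genes, Tgfbr2 (0.44) and Smad3 (0.44) rose and Tgfbr1 (-0.52) and Tgfbi (-0.87) fell, Tgfbr1 not without Nrp1-deleted replicate 3 (adjusted p = 0.118). Of 12 arginase and polyamine genes 4 fell, among them Arg1 (-1.24 ± 0.43) and Sat1 (-0.72), and 2 did without control replicate 3 or Nrp1-deleted replicate 2. Of 15 immediate early genes 4 fell, Atf3 (-1.0), Egr2 (-0.94), Jun (-0.87) and Nr4a1, and 2 did without control replicate 3 or Nrp1-deleted replicate 2. Of 14 fatty acid oxidation genes, Pparg (-1.0) and Slc25a20 (-0.41) fell, of 5 chitinase-like genes Retnla (-2.28), and of 4 plasmacytoid dendritic cell genes Ccr9 (-0.85), which was not called without Nrp1-deleted replicate 3 (adjusted p = 0.107).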
